A study of Homo sapiens with 6 samples.

Results

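The genes of human chromosome 20 were followed in order of position in the bladder carcinoma line UC3 and its resistant subline UC3DDP. The members were all chromosome 20 genes of the deposited count table whose raw counts, summed over the 6 libraries, reached at least 60, which gave 398 genes of 502 on the chromosome and of 18936 in the table. Of these, 132 started before 28 Mb (megabases) and were taken as the short arm, and 266 started after it and were taken as the long arm. The members comprised 328 protein-coding genes, 52 long non-coding RNA genes and 18 genes of other types. The members just inside the limit had sums of 60, 61 (CDH26) and 62 counts (PET117), and the genes just outside had 57, 58 and 59 (RPL24P2). The members were chosen by position and by their summed counts, and the choice was proposed with the contrast between the lines already known, so the arms are described here without a test.

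UC3 is a human cell line grown from a bladder carcinoma. UC3DDP is the name the labels give to the resistant subline, which the study derived from UC3 by repeated cycles of gemcitabine and cisplatin, a nucleoside analogue and a platinum compound. Each line had 3 libraries, and no treatment other than the derivation is named in the labels. The subline is a single derived line, so features of this one derivation and of resistance cannot be told apart. The labels do not say whether libraries came from separate cultures, and p-values measure only the spread between these libraries. Total counts were 19467228 to 20803970 in UC3 and 16757610 to 17254683 in UC3DDP. Members took 2.89% to 2.92% of the counts in UC3 and 2.43% to 2.47% in UC3DDP. Of 8 urothelial markers listed, 4 were in the table, with summed levels of 15.7 to 16.6 CPM (read counts scaled to library size) in UC3 and 17.6 to 20.4 CPM in UC3DDP, and KRT20, KRT5, UPK1B and UPK3A were not among the rows. Endothelial markers summed to 0.103 to 0.496 CPM in UC3 and 2.31 to 8.07 CPM in UC3DDP, fibroblast markers to 5.19 to 5.85 and 12.3 to 25.4 CPM, and the 1 leukocyte marker of 5 in the table to 0.0961 to 0.103 and 0.174 to 0.475 CPM. UC3DDP replicate 1 stood apart in some of these, with 47, 5 and 5 counts of PECAM1 and 58, 2 and 2 counts of COL3A1 in replicates 1, 2 and 3. Other markers were higher in all 3 UC3DDP libraries. VWF had 4, 1 and 1 counts in UC3 and 69, 34 and 32 in UC3DDP, and LUM 1, 1 and 2 and then 36, 33 and 19. COL1A1 and PDGFRB were higher in all 3 as well. Without UC3DDP replicate 1 the short-arm median was -0.76 with 46 genes lower, which leaves the markers of the other libraries in place. The part of these markers in single genes was not tested.

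Chromosome 20 is a small autosome whose arms carry housekeeping genes in mixed order with tissue-restricted ones. The short arm holds the replication clamp gene PCNA and several RNA-processing genes, and the long arm holds the kinase gene SRC, the elongation factor gene EEF1A2 and the apoptosis regulator BCL2L1. Many neighbouring genes start back to back and are read in opposite directions from one shared stretch of promoter. Such pairs are a natural place to ask whether fold changes follow position.

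Promoter sequences (250 bases before to 50 bases after the annotated start, RefSeq, GRCh38.p14) were matched by symbol for 283 of the 398 members. The 3 sequences of divergent pairs below come from 3 pairs that were picked by hand and are described further on. KIZ stands for the genes of the short arm that fell most. Capitals mark matches, on either strand, to GGGCGG (a GC box), CCAAT or TATAAA.
MCM8 promoter, chr20:5950402-5950701, plus strand: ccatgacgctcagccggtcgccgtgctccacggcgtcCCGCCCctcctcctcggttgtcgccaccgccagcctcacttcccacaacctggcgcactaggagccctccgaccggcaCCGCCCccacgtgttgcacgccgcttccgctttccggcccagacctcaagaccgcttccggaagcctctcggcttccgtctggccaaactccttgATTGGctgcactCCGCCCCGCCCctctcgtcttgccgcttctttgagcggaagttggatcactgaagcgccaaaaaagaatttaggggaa
NDUFAF5 promoter, chr20:13784778-13785077, plus strand: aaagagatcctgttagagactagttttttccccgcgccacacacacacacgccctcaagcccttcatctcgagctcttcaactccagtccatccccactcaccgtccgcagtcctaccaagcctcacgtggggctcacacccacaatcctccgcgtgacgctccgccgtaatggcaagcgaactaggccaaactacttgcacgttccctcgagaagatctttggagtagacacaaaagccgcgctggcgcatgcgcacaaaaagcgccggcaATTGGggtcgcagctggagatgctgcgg
MGME1 promoter, chr20:17968768-17969067, plus strand: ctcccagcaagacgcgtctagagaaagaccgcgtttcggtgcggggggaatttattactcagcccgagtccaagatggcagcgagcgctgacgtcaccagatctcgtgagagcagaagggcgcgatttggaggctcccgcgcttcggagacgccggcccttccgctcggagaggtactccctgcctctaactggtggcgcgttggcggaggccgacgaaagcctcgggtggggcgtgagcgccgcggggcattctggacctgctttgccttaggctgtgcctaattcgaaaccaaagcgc
KIZ promoter, chr20:21125725-21126024, plus strand: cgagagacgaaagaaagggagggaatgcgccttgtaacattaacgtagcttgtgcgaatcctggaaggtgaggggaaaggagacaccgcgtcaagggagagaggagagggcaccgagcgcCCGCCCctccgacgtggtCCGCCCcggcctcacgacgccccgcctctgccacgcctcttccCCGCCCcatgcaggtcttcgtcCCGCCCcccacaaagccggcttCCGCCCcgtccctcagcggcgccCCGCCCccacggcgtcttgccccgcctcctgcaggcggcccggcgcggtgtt
The MCM8 window shared 218 bases with the window of its partner TRMT6, the NDUFAF5 window 208 bases with that of ESF1, and the MGME1 window 277 bases with that of SNX5. KIZ had 6 matches to GGGCGG and 34 CpG dinucleotides. GGGCGG was found in 45% of all promoters of the RefSeq table, in 71.4% of the matched short-arm promoters and in 68.2% of the long-arm ones. CCAAT was found in 34.6%, 39.6% and 27.6%, and TATAAA in 11.5%, 0% and 6.25%. Among short-arm genes, 61.1% of 36 promoters of genes called lower held GGGCGG, and 80.8% of 52 promoters of genes not called did. The RefSeq promoters, 35116 windows with no filter on counts, had a median GC content of 58.7%, against 68% in the matched members. They are thus not a like set of genes, and a set matched for level was not measured. These shares are a description of letters in a window.

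The short arm was lower in UC3DDP over most of its genes. The long arm lay near the median of all genes, and below it once the GC content and length of the transcripts were adjusted for. The median log2 fold change (UC3DDP over UC3) was -0.73 over the 129 short-arm genes tested, with quartiles of -1.14 and -0.16, and 0.07 over the 262 long-arm genes tested, beside 0.02 over all 15120 genes of the table tested. A gene was called when edgeR's quasi-likelihood test gave a Benjamini-Hochberg adjusted p below 0.05 and the line means differed by more than 1 log2 unit. On the short arm 49 genes were called lower and 4 higher, that is 38.0% and 3.10%, where the background over all genes tested was 23.1% lower and 17.6% higher (40.7% in either direction). On the long arm 37 were called lower and 22 higher, or 14.1% and 8.40%. On the short arm, the 3 UC3DDP libraries lay below all UC3 libraries for 92 genes (71.3%, against a background of 41.6%) and above them for 16 genes (12.4%, against 42.1%). Fold changes are relative to the whole library, and a change in all RNA per cell cannot be told apart from its absence in such data, nor can fewer cells of a type and less RNA per cell.

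**Figure D1:**
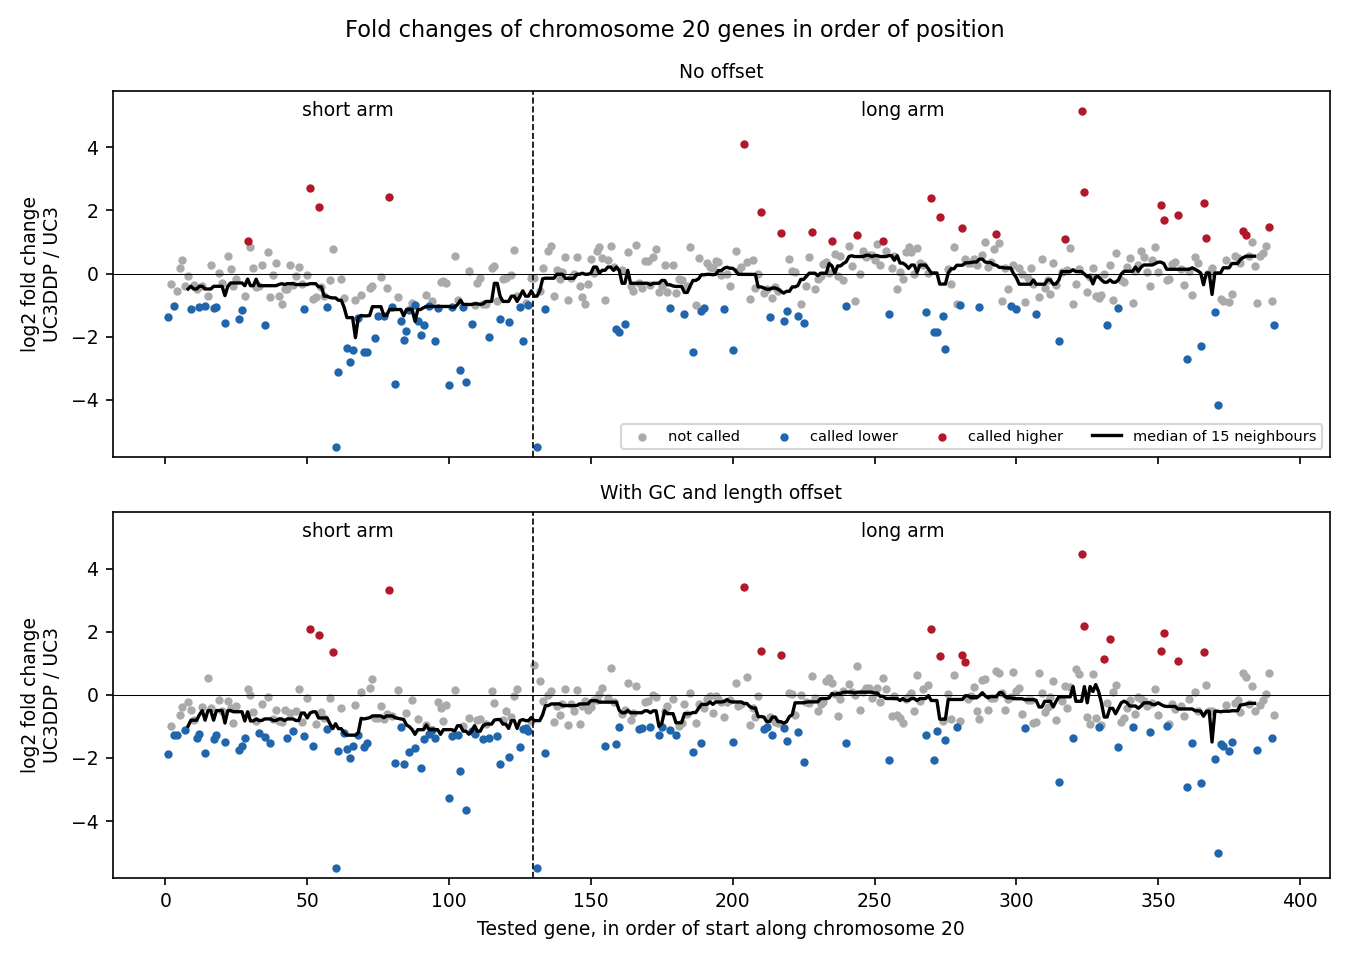
Log2 fold change (UC3DDP over UC3) of the 391 tested genes in order of start, without (top) and with (bottom) the GC and length offset. Points are genes, coloured by call, the line is the median of 15 neighbours and the dashed line separates the arms, and 2 genes listed at 0 counts in UC3DDP are drawn at the lower edge. The line stays below 0 over the short arm in both panels.

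The difference between the arms was present in every UC3DDP library. The median short-arm gene lay at -0.70, -0.71 and -0.73 in UC3DDP replicates 1, 2 and 3, on the log2 CPM scale relative to the gene's UC3 mean. The median long-arm gene lay at 0.15, 0.00274 and 0.06 in the same libraries. The short-arm values are thus below all long-arm values, and in the 3 UC3 libraries the medians of both arms lay between -0.00934 and 0.00549. Summed over all 132 short-arm members, the level was 11224, 11394 and 11336 CPM in UC3 and 7051, 6894 and 6893 CPM in UC3DDP. Summed over the 266 long-arm members, it was 17575, 17840 and 17858 CPM in UC3 and 18268, 17008 and 17241 CPM in UC3DDP. The ratio of group means was 0.614 on the short arm, where the lines did not overlap, and 0.986 on the long arm, where they did.

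**Figure D2:**
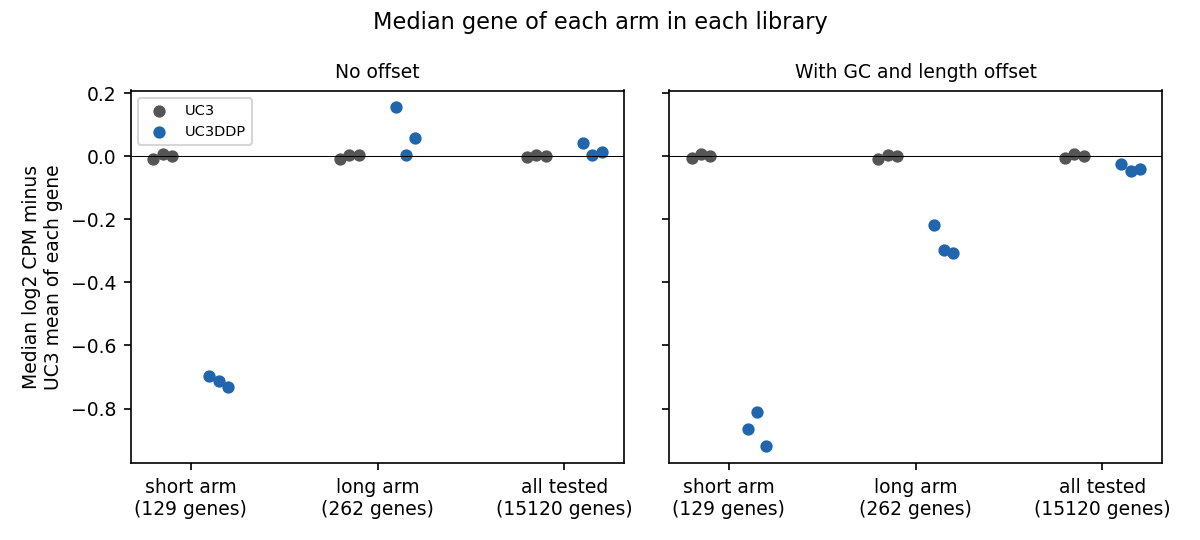
Median over genes of log2 CPM minus each gene's UC3 mean, for the short arm, the long arm and all tested genes, 1 point a library, without (left) and with (right) the GC and length offset. The 3 UC3DDP points of the short arm lie between -0.70 and -0.73 without the offset, below those of the other groups.

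Fold changes in these libraries followed the GC content of the transcript, which bears on a comparison of regions. Over other chromosomes, the median log2 fold change was -0.88 for genes whose longest transcript had under 45% GC, 0.29 for those with 45 to 55% and 0.73 for those with 55% or more. The median GC content was 48.5% on the short arm and 51.7% on the long arm, against 47.5% over all genes tested. Within the same 3 classes the short arm lay at -1.55, -0.72 and -0.14, and the long arm at -0.86, 0.11 and 0.40. The short arm was therefore below the long arm in each class, with differences of -0.69, -0.83 and -0.53 on the log2 scale. It was below the other chromosomes as well, while the long arm differed from them by 0.02, -0.19 and -0.33. What set the GC trend was not tested.

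**Figure D3:**
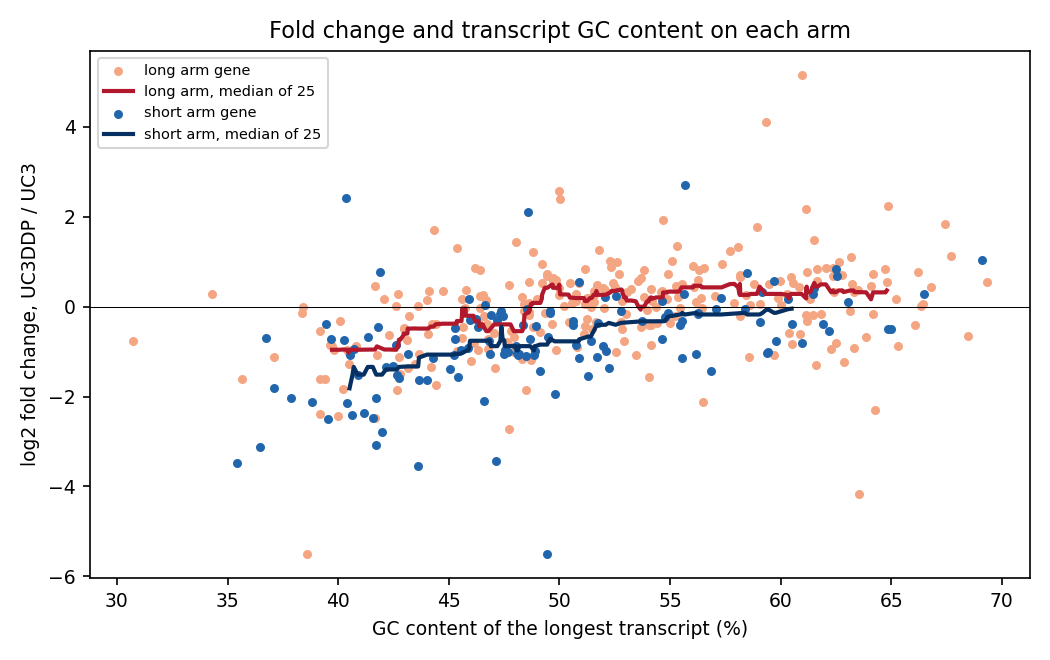
Log2 fold change of each tested gene against the GC content of its longest transcript (percent), short arm in blue and long arm in orange, with the running median of 25 genes for each arm. Both lines rise with GC content, and the short-arm line lies below the long-arm line, with class medians of -1.55 and -0.86 under 45% GC. The 2 genes at 0 counts in UC3DDP are drawn at the lower edge.

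When a smooth trend in GC content and exon length was fitted in each library and entered in the test as an offset, the short-arm median was -0.83 and the long-arm median -0.26, with all genes at -0.04. The short arm then had 56 genes lower (43.4%) and 4 higher, beside a background of 14.7% lower and 13.1% higher, and 115 of its 129 genes (89.1%) had a fold change below 0. The long arm had 48 lower (18.3%) and 15 higher (5.73%), and 182 of its 262 genes (69.5%) were below 0, where the background was 51.7%. The difference of the arm medians was -0.79 without and -0.57 with the offset. Calls lower with and without the offset were shared by 40 short-arm and 24 long-arm genes, and calls higher by 3 and 12.

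Against other chromosomes, chromosome 20 as a whole stood in the middle of the range without the offset and at the bottom with it. Its median was -0.19 over the 391 genes, and the medians of the other chromosomes ran from -0.71 (chromosome 13) to 0.60 (chromosome 16). With the offset its median was -0.48, and the others ran from -0.31 (chromosome 13) to 0.21 (chromosome 17). The short arm taken alone was below every other whole chromosome in both settings. Without the offset its median was close to that of chromosome 13 (-0.73 and -0.71), where a larger share of genes was called lower (41.7%, against 38.0%). With the offset the shares were 22.6% on chromosome 13 and 43.4% on the short arm. The arms of other chromosomes were not measured.

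**Figure D4:**
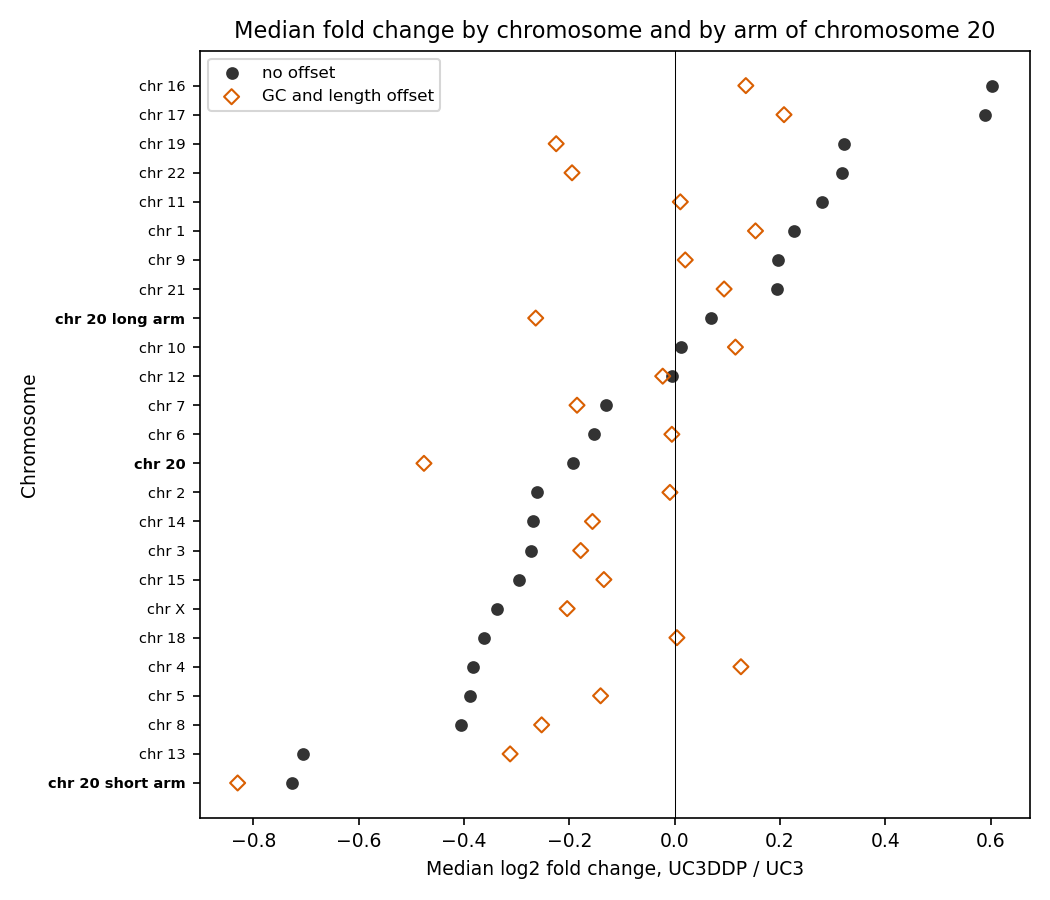
Median log2 fold change of the tested genes of each chromosome, with chromosome 20 and its arms in bold, without (filled) and with (open) the GC and length offset. The short arm has the lowest value in both settings, -0.73 and -0.83, beside -0.71 and -0.31 for whole chromosome 13.

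Along the chromosome, medians of neighbouring genes lay below 0 over the whole short arm, but without the offset some were only slightly below. The running median of 15 neighbouring genes was below 0 in 115 of 115 windows lying within the short arm and in 107 of 248 within the long arm, against 51.6% of windows on other chromosomes. With the offset it was below 0 in 115 of 115 and in 223 of 248, again against 51.6% elsewhere, so that on this measure the arms were close. It was below -0.5 in 66 short-arm and 7 long-arm windows without the offset and in 115 and 61 with it, against 29.4% and 13.1% elsewhere. The lowest window ran from LINC00654 to MKKS, at -2.03, and 0.404% of the 14107 windows on other chromosomes were as low or lower. The highest short-arm window, ENSG00000276649 to LZTS3, was at -0.18, and 43.9% of windows on other chromosomes were as low or lower. On the long arm the windows ran from -0.66 (HAR1A to LIME1) to 0.58 (PABPC1L to ZSWIM1). With the offset the lowest window of the chromosome was on the long arm, HAR1A to LIME1 at -1.497, with 0.128% of other windows as low or lower, and the lowest on the short arm was PCNA to PLCB4 at -1.28, with 0.425%.

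In bins of 5 Mb, the shape of the short arm depended on the offset. Without it, the first bin, of 55 genes with a median GC content of 52.8%, was at -0.38, and the next 4 were at -1.07, -1.05, -1.07 and -0.97. In the first bin 12 genes were called lower (21.8%), near the 23.1% over all genes tested. With the offset, these 5 bins were at -0.81, -1.21, -0.67, -1.11 and -1.07. The first bin then had 20 genes called lower (36.4%), beside a background of 14.7%. The bin that holds the centromere was at -0.88 and, with the offset, -1.07. The bins of the long arm from 30 Mb on lay between -0.22 and 0.34, and with the offset between -0.44 and -0.05. The last bin, of 56 genes with a median GC content of 61.0%, changed side, from 0.23 to -0.44. The 15 tested genes nearest the centromere on the short arm, CST3 to FAM182B, had a median of -0.72 with 5 lower, and the first 15 on the long arm, FRG1CP to NOL4L, had -0.15 with 2 lower. The first long-arm genes include pseudogenes of FRG1, which share sequence with one another, so their counts are uncertain.

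Without the offset there were 2 runs of at least 4 neighbouring genes called in one direction, both of lower genes and both on the short arm. The first was MACROD2, KIF16B, SNRPB2 and BFSP1, with log2 fold changes between -2.10 and -1.14. KIF16B, a kinesin that moves endosomes, read 49.4, 47.5 and 48.7 CPM in UC3 and 9.02, 12.8 and 12.1 CPM in UC3DDP. SNRPB2, a protein of the U2 spliceosomal particle, fell by 1.82 without the offset and had a value of -0.57 with it, so it was not called there. The second was RRBP1, SNX5, SNORD17 and MGME1, with values between -1.95 and -1.003. RRBP1, a ribosome-binding protein of the endoplasmic reticulum, lay at the fold limit (-1.003, adjusted p = 1.15e-06) and was not called when UC3DDP replicate 1 was left out, which left 1 run. Runs of lower genes numbered 1.55 per 100 tested genes on the short arm and 1.03 on other chromosomes, which also held 73 runs of higher genes. SNORD17 lies within SNX5 on the same strand, so their reads are not independent. With the offset there were 1.55 runs of lower genes per 100 on the short arm and 0.242 on other chromosomes. The 3 runs of chromosome 20 were CHGB to ENSG00000275632 and NINL to ZNF337 on the short arm, and MHENCR, STMN3, RTEL1 and RTEL1-TNFRSF6B on the long arm, where the last 2 share exons.

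Head-to-head pairs, whose starts lie within 1000 bases on opposite strands, numbered 41 with both genes tested. Both genes were called lower in 2 pairs and higher in 1, no pair was called in opposite directions, and 1 gene alone was called in 14. Over all genes tested 23.1% were called lower and 17.6% higher. The median absolute difference within a pair was 0.66 on the log2 scale, against 0.76 between the 390 neighbours in order of start. With the offset these were 0.56 and 0.67. The pairs called lower together were then TRMT6/MCM8, DZANK1/POLR3F, NANP/ZNF337-AS1, GGT7/ACSS2 and STMN3/RTEL1. In the pair TRMT6 and MCM8, starts 94 bases apart, both fell. TRMT6, a subunit of a tRNA methyltransferase, read 91.3, 93.1 and 90.2 CPM in UC3 and 13.5, 20.7 and 19.0 CPM in UC3DDP (log2 fold change -2.37, SE 0.14, adjusted p = 7.13e-07). MCM8, a helicase of DNA repair, read 65.3, 59.3 and 62.4 CPM and then 5.88, 11.2 and 10.0 CPM (-2.79, SE 0.18, adjusted p = 1.18e-06). All UC3DDP libraries were far below the UC3 libraries for both genes. In the pair SNX5 and MGME1, starts 38 bases apart, the sorting nexin SNX5 fell by 1.51 (SE 0.09) and the mitochondrial exonuclease MGME1 fell by 1.64 (SE 0.10), with SNX5 at -0.78 and not called with the offset. In the pair ESF1 and NDUFAF5, starts 88 bases apart, the genes differed. ESF1, a nucleolar protein, read 151, 147 and 144 CPM in UC3 and 8.67, 13.8 and 17 CPM in UC3DDP (-3.48, SE 0.19). NDUFAF5, an assembly factor of respiratory complex I, read 45.5, 43.8 and 45.6 CPM and then 25, 27.1 and 28.1 CPM (-0.75, SE 0.07), which did not reach the fold limit. The ESF1 transcript had 35.4% GC and that of NDUFAF5 40.3%. With the offset the values were -2.16 and 0.14. STMN3 and RTEL1 on the long arm differed in size as well, at -4.17 and -0.80, and at -5.00 and -1.55 with the offset, where both were called lower. Their starts lie 128 bases apart by the positions of the count table. The RefSeq promoter window of STMN3 (63652717 to 63653016) lies inside that gene instead, so a shared promoter is uncertain for them.

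Among the short-arm genes with the lowest values were several of RNA processing and the cell cycle. CRNKL1, a spliceosome component, read 144, 145 and 141 CPM in UC3 and 13, 19.4 and 18.8 CPM in UC3DDP (log2 fold change -3.07, SE 0.14, adjusted p = 2.24e-07). KIZ, a protein of the mitotic spindle poles, read 34.9, 31.6 and 31.3 CPM and then 2.37, 3.78 and 2.90 CPM (-3.43, SE 0.14). Neither gene's libraries overlapped between the lines, and both calls held with the offset (-2.41 and -3.64). GPCPD1, a phosphodiesterase of choline metabolism, fell by 3.12 and was at -1.77 with the offset. PLCB1 and PLCB4, phospholipases downstream of G-protein-coupled receptors, were at -2.48 and -2.49. PCNA, the clamp of the replication fork, read 357, 356 and 338 CPM in UC3 and 165, 165 and 172 CPM in UC3DDP (-1.07 with and without the offset). XRN2, a nuclear exonuclease, fell by 1.59. LINC00654 had 105 counts in UC3 and none in UC3DDP, at least 29.5-fold lower when the floor is set at 3 counts for the 3 libraries together. Of the 12 called members with the lowest fold changes and at least 10 CPM in one line, 8 were on the short arm, and of the 12 highest, 1 was. The short arm held 49 of all 86 members called lower and 4 of the 26 called higher, so these counts add little to the arm counts.

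The short-arm genes that rose were few. RASSF2, a RAS-binding protein described as a tumour suppressor, read 13.1, 10.9 and 12.5 CPM in UC3 and 49.5, 56.1 and 51.1 CPM in UC3DDP (log2 fold change 2.10, SE 0.10, adjusted p = 2.39e-07), and its libraries did not overlap. SPTLC3, a subunit of serine palmitoyltransferase, read 0.843, 0.620 and 0.961 CPM and then 2.85, 5.87 and 4.33 CPM (2.41, SE 0.31). FTLP3, a ferritin light-chain pseudogene whose reads may come from its parent gene, was at 2.70. EBF4, a transcription factor gene, was at 1.03 and, with the offset, 0.19. Without the offset 23 of 129 short-arm genes had a fold change above 0, and with it 14 did. MAVS, the mitochondrial adaptor of RNA sensing, was one that stayed near its UC3 level, at 213, 217 and 213 CPM in UC3 and 266, 235 and 246 CPM in UC3DDP.

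On the long arm, genes with large changes in both directions were found, some beside neighbours called the same way and some not. SRC, a non-receptor tyrosine kinase, read 1.84, 1.81 and 2.02 CPM in UC3 and 37.8, 28.9 and 31.3 CPM in UC3DDP (log2 fold change 4.11, SE 0.14, adjusted p = 6.65e-08). EEF1A2, a translation elongation factor of muscle and nerve, read 80.1, 78.3 and 82.4 CPM and then 407, 354 and 369 CPM (2.23, SE 0.08, adjusted p = 6.92e-08). TGM2, a transglutaminase that crosslinks proteins, read 148, 151 and 158 CPM and then 636, 545 and 571 CPM (1.94, SE 0.08). In all 3 genes the lowest UC3DDP library was above the highest UC3 library, and the calls held with the offset (3.41, 1.34 and 1.38). The genes on either side of SRC, MANBAL and BLCAP, were at 0.20 and 0.36, while PPDPF, next to EEF1A2, was also called higher (1.12). SDC4, a cell-surface proteoglycan, rose by 1.22 and was at 0.91 with the offset. The divergent pair APCDD1L and APCDD1L-DT rose together, by 5.16 and 2.57, from low levels of 0.0480 to 0.103 CPM and 0.207 to 0.248 CPM in UC3. SLC2A10, a glucose transporter, rose by 2.40, PREX1, an exchange factor for the GTPase Rac, by 1.78, and B4GALT5, a galactosyltransferase, by 1.44.

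**Figure D5:**
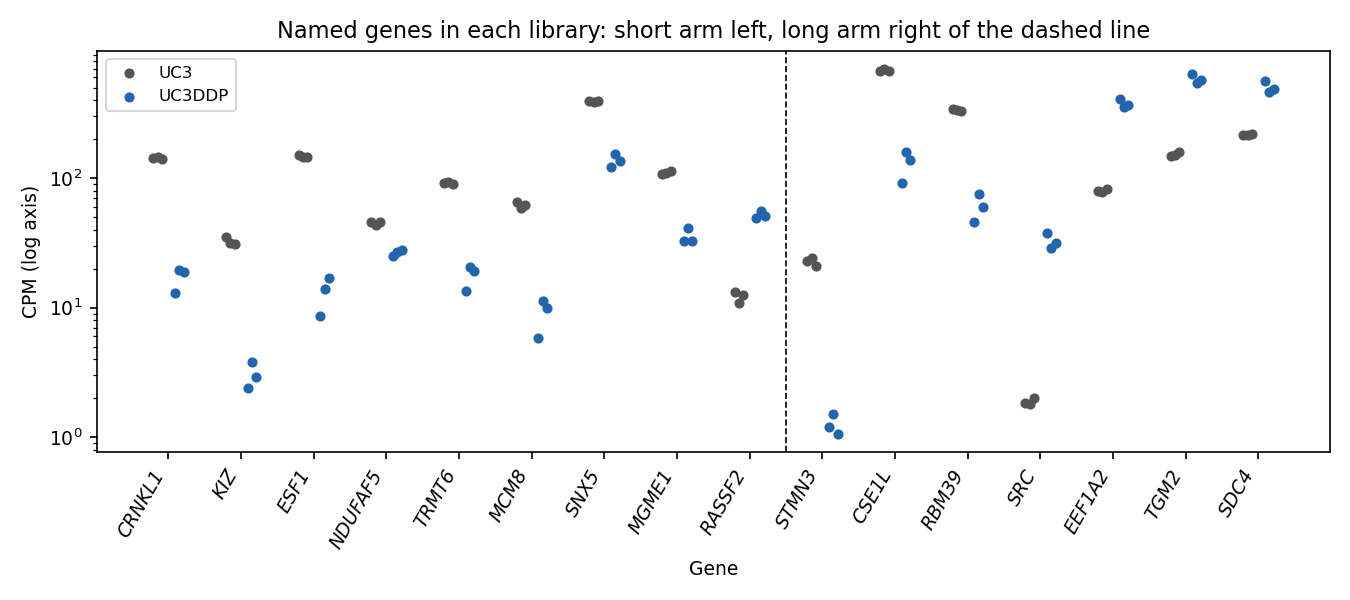
CPM of 16 named genes in each library on a log axis, UC3 in grey and UC3DDP in blue, short-arm genes left and long-arm genes right of the dashed line. The 3 libraries of a line lie close together, and the lines do not overlap for any gene shown, for example SRC at 1.81 to 2.02 CPM in UC3 and 28.9 to 37.8 CPM in UC3DDP.

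Long-arm genes that fell lay in part beside other genes that fell, such as the neighbours ZMYND8 and NCOA3 (-1.85 and -1.86). The tested genes on either side of that pair, SLC2A10 (2.40) and PREX1 (1.78), were called higher, with and without the offset. STMN3, a stathmin-family protein that binds tubulin, read 23.0, 24.3 and 21 CPM in UC3 and 1.19, 1.51 and 1.07 CPM in UC3DDP (log2 fold change -4.17, SE 0.14, adjusted p = 5.58e-08). CSE1L, the export receptor that returns importin alpha to the cytoplasm, read 666, 696 and 675 CPM and then 91.1, 160 and 138 CPM (-2.39, SE 0.18). RBM39, a splicing factor, read 340, 337 and 329 CPM and then 45.7, 75.7 and 60.1 CPM (-2.47, SE 0.16). The UC3DDP libraries were below the UC3 libraries for each, with replicate 1 the lowest for CSE1L and RBM39. MHENCR, next to STMN3, and ARFGEF2, next to CSE1L, were called lower as well (-1.22 and -1.35). The genes on the other side, RTEL1 (-0.80) beside STMN3 and STAU1 (0.15) beside CSE1L, were not called. With the offset RTEL1 was called lower (-1.55) and ARFGEF2 was not called (-0.82). The neighbours of RBM39, ROMO1 (0.86) and PHF20 (-0.99), were not called. RBL1, a retinoblastoma-like repressor of E2F targets, fell by 2.42, and TOP1, the topoisomerase that relaxes DNA, fell by 1.505. FRG1EP, an FRG1 pseudogene, had 78 counts in UC3 and none in UC3DDP, at least 21.9-fold lower. AURKA, a mitotic kinase, read 178, 176 and 184 CPM in UC3 and 153, 162 and 153 CPM in UC3DDP (-0.20), and BCL2L1 65.2, 67.3 and 66.2 CPM and then 120, 99.3 and 107 CPM (0.71), both short of the fold limit.

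By function, the lists differed in how many of their members fell. Of 25 replication and cell cycle genes, 11 were lower and none higher, 6 of 10 on the short arm and 5 of 15 on the long arm, with medians of -1.06 and -0.73. Of 30 RNA-processing genes, 10 were lower and 1 higher, 7 of 9 on the short arm and 3 of 21 on the long arm, with medians of -1.82 and -0.49. Of 39 tested transcription factor and chromatin genes, 9 were lower and 2 higher, among them the chromodomain protein CHD6 (-1.36), ZMYND8 (-1.85), a reader of acetylated histones, and the coactivator NCOA3 (-1.86). Of 27 signalling genes, 9 were lower and 3 higher, and the ligand BMP7 fell by 2.13. Of 11 tested adhesion, matrix and surface genes, 3 were higher and 2 lower, TGM2, SDC4 and the collagen chain COL9A3 (1.85) among the former and FERMT1 (-1.40), an integrin activator, among the latter. Of 17 mitochondrial genes, 4 were lower, including FASTKD5 (-1.62) and PANK2 (-1.13), and 3 of the 4 were on the short arm. Of 27 translation and protein turnover genes, 3 were lower, EIF2S2, a subunit of an initiation factor, among them (-1.75), and 2 higher. Of 29 metabolism and transport genes, 4 were lower, such as NANP (-2.12), and 2 higher, and none of the 12 tested cell death and innate immunity genes was called. With the offset the signalling list had 4 lower and 3 higher, the translation list 6 and 1, the mitochondrial list 6 and 1, the transcription factor list 10 and none, the adhesion list 3 and 2, and the cell death list 1 and none. The other 3 lists then had 11 lower and none higher (replication), 12 and none (RNA processing) and 5 and 2 (metabolism). The lists were chosen with these results known. Their counts without the offset stand beside 23.1% lower and 17.6% higher over all genes tested. Those with the offset stand beside 14.7% lower and 13.1% higher.

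Of the 398 members, 7 did not pass the filter on low counts and were not tested (CDH26, PET117, PLTP, LINC01271, ENSG00000278192, ENSG00000278383 and ENSG00000278231). Of the members, 164 overlap another gene of the table, 130 of them on the opposite strand, and the counting is not stated to use strand, so their reads cannot be told apart from those of the partner. Without the members that overlap the opposite strand, an alternative chosen after seeing the data, the 95 short-arm genes left had a median of -0.77 with 38 lower and 4 higher, and the 169 long-arm genes -0.024 with 27 lower and 14 higher.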

How the data were processed

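Per the study's methods, total RNA of UC3 and UC3DDP was sequenced in pairs, trimmed with Fastp, aligned to GRCh38 with HISAT2 and counted per gene with featureCounts. Whether strand was used in counting was not given in these sources. The authors deposited raw counts per gene, not normalized, beside their own log2 fold change, fold ratio, p-value and false discovery rate, which were not used, and the summed exon length. The labels conflict: the series text names T24, the extraction text retinas, and the processing notes a mouse build, but the gene positions are those of GRCh38 and the sample titles name UC3. Samples were grouped by title.

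Counts were tested with edgeR 4.0.16 (quasi-likelihood, TMM, filterByExpr with a minimum count of 10) in R 4.3.3 over all 15120 genes, and no covariate was used. CPM used TMM-scaled library sizes. A call needed an adjusted p below 0.05 and more than 1 log2 unit of difference. The GC and length offset was a loess fit (span 0.3) in each library on the GC content of the longest GENCODE transcript and the exon length. Procedures were tested on simulated counts with a small set of changed genes, equal in both directions, with and without a straight GC trend. No shift of a region was simulated, so that check does not bear on the arms. Members, arms, windows, lists and the rule for named genes (the 12 highest and 12 lowest called genes, the 5 largest CPM changes a direction, run members, up to 4 genes a list, SRC and EEF1A2) were chosen with earlier results of these data known. PCNA, TOP1, MANBAL, BLCAP, PPDPF, MHENCR, ARFGEF2, STAU1, ROMO1, PHF20, MAVS, AURKA, BCL2L1, NDUFAF5, RTEL1, EBF4, FTLP3, APCDD1L, LINC00654 and FRG1EP were named after their values were seen. Floors cover counting error only.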

Additional observations from a re-analysis of the deposited data

How the results depend on the processing

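The short-arm median of -0.73 was -0.77 with DESeq2, -0.74 with DESeq2 size factors, -0.75 with no filter, -0.75 for protein-coding genes alone, -0.83 with the GC and length offset and -0.77 without members overlapping the opposite strand. It stayed between -0.76 and -0.74 when each library was left out. The long-arm median of 0.07 was -0.26 with the offset and -0.024 without overlapping members, which also left 14 higher long-arm genes, so its sign rests on these choices. The difference of the arm medians was -0.57 with the offset. With no fold limit, 15 short-arm genes were higher and 90 lower, 102 and 96 on the long arm, 117 and 186 on the chromosome, and there were 3 runs of higher and 11 of lower genes. Leaving out each library gave 1 to 3 runs of lower genes, and 1 of them without UC3DDP replicate 1. The lowest window of the chromosome, which need not be the same genes in each setting, was -2.03, and it was -2.37 with 9 genes, -1.34 with 25, -2.35 with DESeq2, -2.29 with no filter and -1.497 with the offset, where it was a long-arm window (HAR1A to LIME1), and -2.37 to -1.89 when each library was left out. The highest window, 0.58, was 0.32 with the offset and 0.50 to 0.64 when each library was left out. The cause of these shifts was not tested.

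No pairing of libraries by replicate number was seen. Once each gene's line mean was taken away, same-numbered libraries of the lines had correlations between -0.05 and -0.01. Those of other numbers had correlations between -0.03 and 0.04. With 3 libraries a line, these values cannot decide whether libraries were prepared in pairs. A fit with the replicate block left 49 short-arm genes lower and 4 higher, and with the block and the offset the arm medians were -0.83 and -0.26, their difference -0.57, and the extreme windows -1.498 and 0.32. Of the 50 named genes, 10 were no longer called with the offset (CSNK2A1, DNAJC5, LINC01270, PRELID3B, SDC4, SNRPB2, SNX5, TOX2, TPD52L2 and UBE2V1) and 1, RRBP1, without UC3DDP replicate 1. Members with few counts limit precision, since 15 tested members had a mean under 10 counts in UC3DDP and 6 in UC3.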
